A study of Mus musculus with 7 samples.

Results

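The genes described here make up the machinery that prepares peptides for MHC class I: B2m, Tap1, Tap2, Tapbp, Psmb8, Psmb9 and Psmb10. They were taken as every probe set that the platform annotation assigns to exactly 1 of the 7 genes, control probe sets excluded, which gave 13 of the 45101 probe sets in the table and 7 of its 18193 named genes. Psmb9, Psmb10 and Tap2 had 1 probe set each, B2m, Tapbp and Psmb8 had 2 each, and Tap1 had 4. Intensities came from 7 single-channel Affymetrix arrays of mouse RNA: 2 of basal cell carcinoma tumours, 2 of normal epidermis taken at birth (P0), and 3 of PDKC1, a mouse basal cell carcinoma line plated in conditioned medium and left without cyclopamine (0 h) or exposed to it for 6 h or 10 h. Cyclopamine is a plant alkaloid that blocks Hedgehog signalling at Smoothened. The sources used here do not give strain, genotype, tumour age or cyclopamine dose. The epidermis is newborn, so age and carcinoma cannot be told apart, and PDKC1 is a single line with 1 array at each time. No label ties the 2 arrays of a tissue to separate animals. A p-value therefore reflects the spread of these samples alone, and that spread may be technical; the number of arrays limits the precision.

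Class I molecules show fragments of a cell's own proteins to CD8 T cells. The proteasome cuts proteins into peptides, and in cells exposed to interferon gamma its catalytic subunits PSMB5, PSMB6 and PSMB7 are replaced by PSMB8, PSMB9 and PSMB10, which forms the immunoproteasome. TAP1 and TAP2 together carry the peptides into the endoplasmic reticulum, where tapasin (Tapbp) holds the transporter next to an empty class I heavy chain paired with beta-2 microglobulin (B2m). Interferon gamma raises the transcription of these genes through transcription factors that include IRF1 and NLRC5, and tumours can lose them and so become less visible to T cells.

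Of the 7 genes 5 lie on mouse chromosome 17 in or near the MHC, and Psmb9, Tap1, Psmb8 and Tap2 stand side by side within 34.3 kb (chr17:34182030-34216321, GRCm38.p6). B2m lies on chromosome 2 (chr2:122147687-122153082) and Psmb10 on chromosome 8 (chr8:105935728-105938392). The 250 bases upstream of the annotated gene start were taken from RefSeq (GRCm38.p6) for the 6 members with an entry, and 4 motifs were searched on both strands: the core of the interferon-stimulated response element (GAAA, any 2 bases, GAAA), the gamma-activated site (TTCNNNGAA), the kappaB consensus and the GC box (GGGCGG). Tap2 had no entry. B2m was the only one of the 6 with the response element core, which 2.98% of all 32851 promoter windows hold, and it also had a kappaB match, present in 7.25% of windows. Its upstream sequence is shown because both matches stand close together, at -139 to -130 and -126 to -117 from the gene start, the kappaB match on the opposite strand. The stretch between Psmb9 and Tap1 is shown because these genes start 225 bases apart on opposite strands, so that one stretch lies upstream of both. In it, capitals mark a GC box that reads GGGCGG on the other strand, which 32.74% of windows hold.
B2m, chr2:122147437-122147686, plus strand, capitals marking the response element core and then the kappaB match: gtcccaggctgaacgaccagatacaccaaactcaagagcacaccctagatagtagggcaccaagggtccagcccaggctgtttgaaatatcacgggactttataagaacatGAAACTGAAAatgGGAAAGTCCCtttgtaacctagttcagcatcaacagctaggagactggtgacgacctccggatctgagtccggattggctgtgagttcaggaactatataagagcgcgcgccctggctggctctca
Psmb9 and Tap1, chr17:34187331-34187555, strand of Tap1, capitals marking the GC box: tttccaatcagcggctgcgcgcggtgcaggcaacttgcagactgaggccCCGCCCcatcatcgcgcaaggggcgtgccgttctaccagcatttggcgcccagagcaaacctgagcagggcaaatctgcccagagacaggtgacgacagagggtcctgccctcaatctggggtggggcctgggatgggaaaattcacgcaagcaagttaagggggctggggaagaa
Psmb8 had a gamma-activated site match at -97 to -89, which 7.02% of windows hold, Tapbp had a GC box, and Psmb10 had a match to none of the 4 motifs in its window. A match describes letters and not binding, and no match says only that these letters are not in this window.

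Of the whole series, RNA quality and overall brightness bear on every value. The tumour RNA had less 5' signal: for Actb the 3' control probe set over the 5' one was 11.3 and 93.1 in the tumours, against 3.98 and 2.84 in the epidermis arrays and 1.15 to 1.21 in PDKC1. For Gapdh the tumours were closer to each other, at 10.6 and 15.4, against 5.27 and 4.52 in the epidermis arrays and 0.70 to 0.74 in PDKC1. The median probe set was brighter in the tumours, at 118.2 and 127.9, than in the epidermis arrays, at 71.0 and 75.3. The median log2 difference over all probe sets, tumour minus epidermis, was 0.19 as deposited, -0.11 after quantile normalization and -0.45 when array medians were centred, and the probe sets called were 8255 higher and 4132 lower, 5671 and 5092, and 4843 and 8722 in that order. The keratinocyte markers Krt5 and Krt14 were bright on all 7 arrays, while Epcam was at 9.6 in PDKC1 at 0 h. The part of RNA quality and of scaling in the differences below was not tested beyond the alternative values given.

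Tumour was set against newborn epidermis to ask how the carcinoma differs from normal skin epithelium. Most of the class I machinery was higher in the tumours: B2m, both transporter subunits, tapasin and the immunoproteasome subunits Psmb8 and Psmb9 rose on the brightest probe set of each gene, and Psmb10 did not pass the test. By the brightest probe set, 6 of 7 genes were called higher and 0 lower, where 16.2% and 12.3% of all genes were. Calls were at an adjusted p under 0.05 (limma, Benjamini-Hochberg over 45037 probe sets). By unadjusted p under 0.05 the counts were also 6 and 0, where 4085 and 3199 of 18193 genes were higher and lower. The median log2 difference of the 7 genes was 1.62, against 0.09 over all genes. Of the 13 probe sets 7 were called higher and 1 lower, where 18.3% and 9.17% of all probe sets were. Both tumours lay above both epidermis arrays in 8 probe sets and below them in 1, where 38.4% and 25.0% of all probe sets did. With centred array medians 2 probe sets were called higher and 1 lower (10.8% and 19.4% of all probe sets), the higher ones being of B2m and Psmb8, and with quantile normalization 4 and 1 were (12.6% and 11.3%). Fits below with 1 tissue array left out leave 1 array in a group. No share over all probe sets is given for them, so calls lost there cannot be read as particular to these genes. In these bulk samples a larger share of cells that express a gene and more RNA per cell cannot be told apart.

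**Figure D1:**
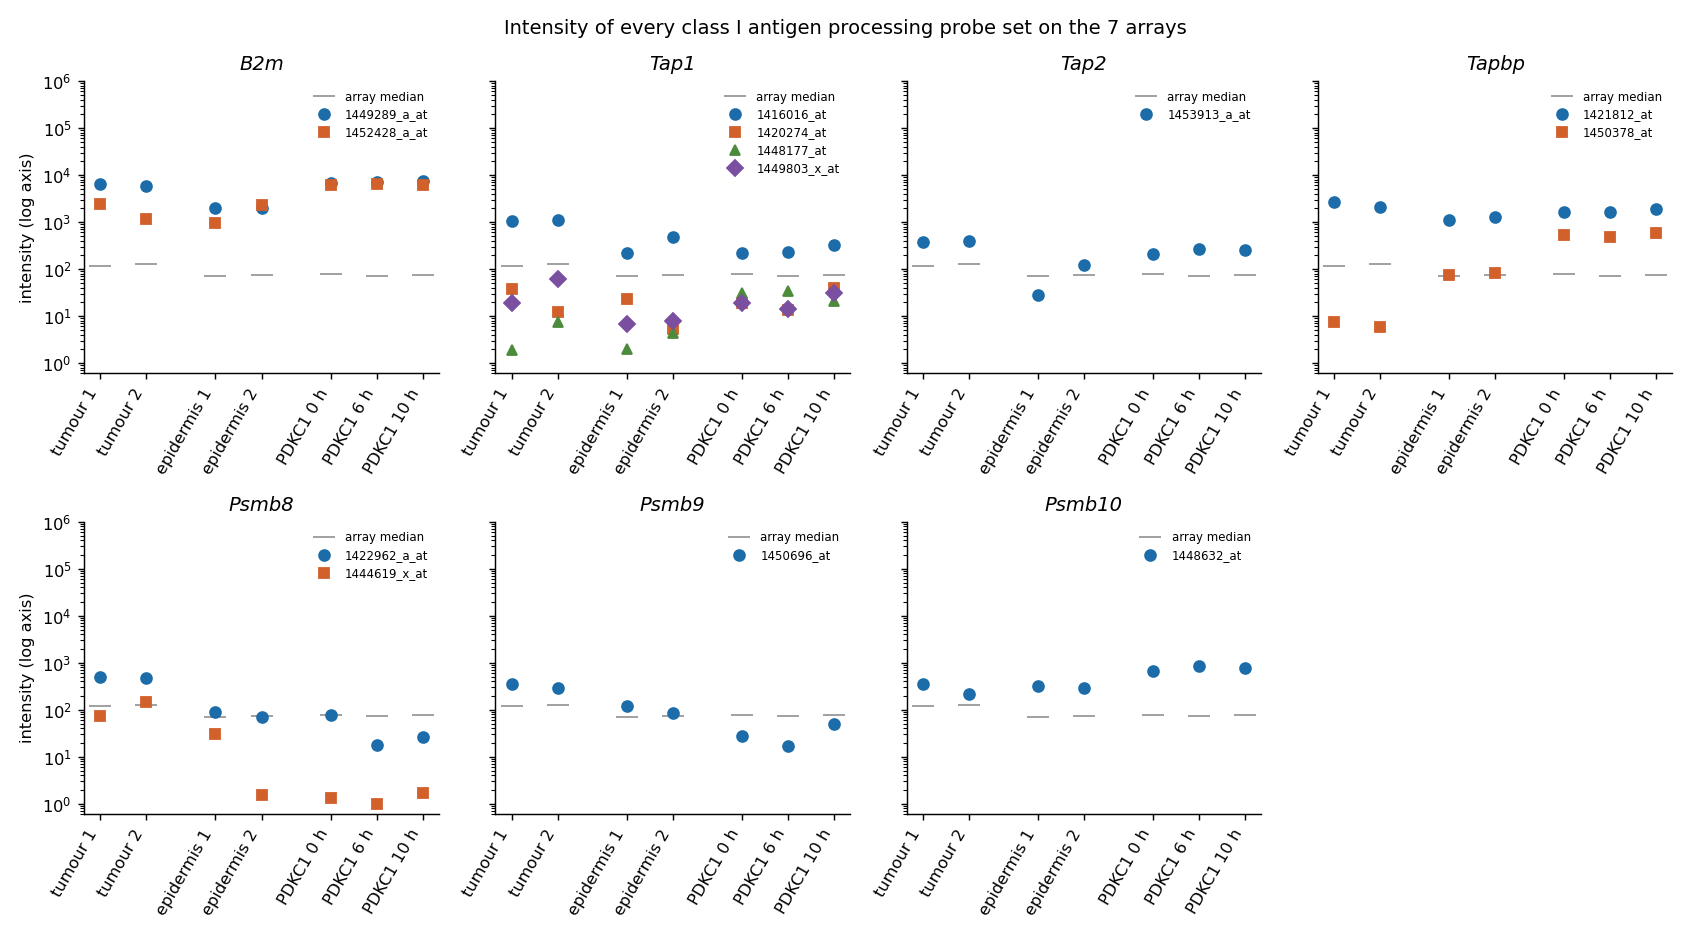
Intensity (log axis) of the 13 probe sets, 1 panel per gene, on the tumour, epidermis and PDKC1 arrays; each point is 1 array and grey dashes give the median probe set of that array. Both tumours lie above both epidermis arrays for the brightest probe set of every gene except Psmb10, and B2m 1449289_a_at in PDKC1 lies level with the tumours.

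B2m, the light chain that every class I molecule needs to reach the cell surface, had intensities of 6473.5 and 5839.6 in the tumours, against 1946.2 and 2029.7 in the epidermis, by probe set 1449289_a_at. The tumours were close to each other and far above both epidermis arrays, and the log2 difference was 1.62 with an SE of 0.21 from 2 arrays a group (adjusted p = 0.00179 by limma). All values after ± are SEs of a log2 difference, tumour minus epidermis. These SEs are moderated: limma draws the variance of each probe set toward a trend fitted over all probe sets. The second B2m probe set, 1452428_a_at, did not show this. The tumours read 2388.5 and 1189.2, and the epidermis arrays 977.2 and 2270.5, so the groups overlapped (0.18, adjusted p = 0.827, 95% interval from -0.90 to 1.25). On that probe set tumour 2 was lower than tumour 1, and tumour 2 also had the higher Actb ratio. Tumour 2 was not the lower tumour on every probe set: for Tap1 1416016_at and Tap2 it read slightly above tumour 1. The call on the bright probe set was lost without epidermis array 1 (adjusted p = 0.0532), with a difference of 1.59.

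Both transporter genes rose. Tap1 had 1061.5 and 1108.7 in the tumours, against 214.8 and 484.3 in the epidermis, by probe set 1416016_at (1.70 ± 0.38, adjusted p = 0.0154). Tap2 had 376.2 and 392.3 in the tumours, against 28.1 and 122.9 in the epidermis (1453913_a_at, 2.35 ± 0.57, adjusted p = 0.0207). For both genes the 2 tumours were nearly equal and the epidermis arrays were spread, array 1 being the lower. Without epidermis array 1 the differences were 1.14 for Tap1 and 1.53 for Tap2, and neither was called (adjusted p = 0.141 and 0.115). Tap2 was also not called without tumour 2 (0.0595) or with quantile normalization (0.0810), Tap1 was not called without a variance trend (0.0536), and with centred arrays neither was (0.0712 for Tap1 and 0.0546 for Tap2).

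The other 3 Tap1 probe sets were below the median of all 7 arrays. Probe set 1449803_x_at read 19.3 and 60 in the tumours, against 6.7 and 7.7 in the epidermis, where the groups did not overlap but the difference was not called (1.16 ± 0.51, adjusted p = 0.143); it was called without tumour 1 (0.0391). Probe set 1420274_at read 37.3 and 12.4 in the tumours, beside 22.9 and 5.2 in the epidermis, which overlapped (0.44, adjusted p = 0.608). Probe set 1448177_at, which the annotation ties to the same GenBank record as the bright 1416016_at, read 1.9 and 7.4 in the tumours, beside 2.0 and 4.4 in the epidermis (0.09, adjusted p = 0.874). In PDKC1 these 3 probe sets stayed between 13.4 and 38.8. An Affymetrix suffix of x marks probes that may also bind other sequences, and a suffix of a marks a set shared by several transcripts of 1 gene.

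Tapbp gave opposite readings. Probe set 1421812_at had 2616.1 and 2046.2 in the tumours, against 1078.9 and 1307.7 in the epidermis, and was called higher (0.95 ± 0.24, adjusted p = 0.0241). Probe set 1450378_at, tied to the same GenBank record, had 7.3 and 5.8 in the tumours, against 76.0 and 83.7 in the epidermis, and was called lower (-2.09 ± 0.47, adjusted p = 0.0151). In PDKC1 this second probe set read 523.0, 481.0 and 596.7 at 0 h, 6 h and 10 h. The part of RNA quality in these readings was not tested. The direction for Tapbp therefore depends on the probe set. The higher call was lost with centred arrays (0.31, adjusted p = 0.388), without a variance trend (0.103), and without epidermis array 1 (0.265) or 2 (0.144), and the lower call was lost without tumour 2 (0.0582) or either epidermis array (0.0605 and 0.0643).

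Of the inducible proteasome subunits Psmb8 and Psmb9 rose and Psmb10 was not called. Psmb8, the chymotrypsin-like subunit of the immunoproteasome, had 503.2 and 468.8 in the tumours, against 88.3 and 70.2 in the epidermis (1422962_a_at, 2.40 ± 0.35, adjusted p = 0.00277). This difference stayed called under all 12 alternatives to which the probe sets were put, with an adjusted p of 0.000808 to 0.0355. Its second probe set, 1444619_x_at, read 74.5 and 147.4 in the tumours, against 29.8 and 1.5 in the epidermis (2.10 ± 0.65, adjusted p = 0.0483), and lost its call under 7 of 11 alternatives, among them the fits without tumour 2 (0.150), without epidermis array 1 (0.0568) and without epidermis array 2 (0.272). Psmb9, its neighbour across Tap1, had 350.6 and 286.0 in the tumours, against 118.0 and 87.2 in the epidermis (1450696_at, 1.5 ± 0.38, adjusted p = 0.0235). Its groups did not overlap, but the call was lost with quantile normalization (0.85, adjusted p = 0.181), with centred arrays (0.134), and without tumour 1 (0.0606) or epidermis array 1 (0.108) or 2 (0.177). Psmb10, which lies outside the MHC, had 348.1 and 220.4 in the tumours, beside 327.2 and 288.2 in the epidermis. Here the tumours enclosed both epidermis arrays, and the difference of -0.14 had a 95% interval from -0.95 to 0.67 (1448632_at, adjusted p = 0.816).

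**Figure D2:**
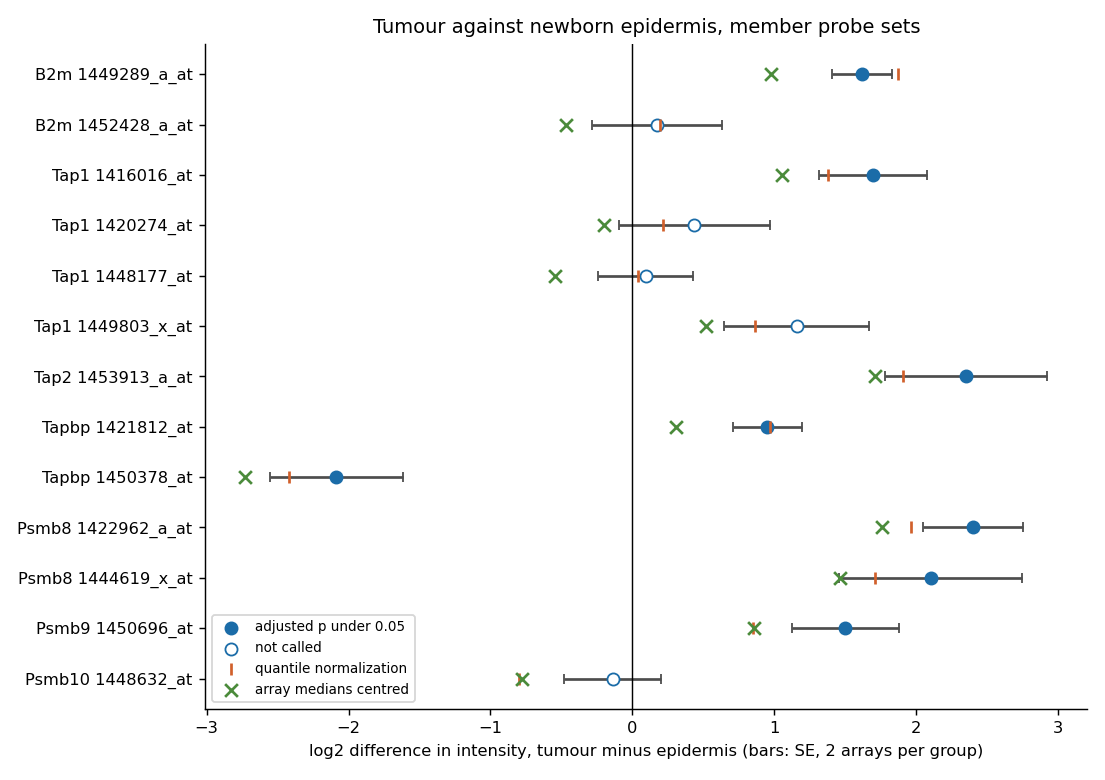
Log2 difference in intensity, tumour minus epidermis, for each of the 13 probe sets, with bars giving the moderated SE of limma (2 arrays per group), filled circles an adjusted p under 0.05, and ticks and crosses the value after quantile normalization and with array medians centred. Of the probe sets 7 are called higher and 1, a Tapbp set at -2.09, is called lower.

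Genes of the standard proteasome fell. Of 14 genes of the constitutive core 10 were called lower and 0 higher by limma, where 12.3% and 16.2% of all genes were. By unadjusted p under 0.05 the counts were 12 and 0, where 3199 and 4085 of 18193 genes were lower and higher. The median of the core was -1.33. Psmb5, whose place PSMB8 takes, had 3480.1 and 2312.6 in the tumours, against 7524.6 and 7195.3 in the epidermis (-1.37 ± 0.26, adjusted p = 0.00759). Psmb6, whose place PSMB9 takes, had 4488.8 and 3190.8 in the tumours, against 7237.0 and 7117.3 in the epidermis (-0.92 ± 0.24, adjusted p = 0.0290). Psmb7, whose place PSMB10 takes, had 1623.9 and 442.2 in the tumours, against 6407.6 and 7306.2 in the epidermis (-2.98 ± 0.53, adjusted p = 0.00579). Every tumour value of these 3 genes lay below every epidermis value. Tumour 2 was the lower tumour each time, but it was the higher one for the core genes Psma3, Psma5 and Psmb3. The part of RNA quality in these values was not tested. Psmb4 (-2.27 ± 0.38), Psmb1 (-2.20 ± 0.24) and Psma1 (-2.03 ± 0.35) were also lower, but with probe sets of a gene averaged Psma1 turned to 0.19 and Psmb1 was not called (-0.63, adjusted p = 0.0795). Without epidermis array 1 the core genes called lower were 3, without array 2 they were 2, and with quantile normalization and without a variance trend they were 6 each; Psmb5 and Psmb6 lost their calls without epidermis array 1, with adjusted p = 0.107 and 0.236, and without array 2 (0.0908 and 0.219).

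Differences between subunits were also taken within each array, on the log2(intensity + 16) scale, where the added constant pulls dim probe sets such as Psmb8 in the epidermis upward. For Psmb8 minus Psmb5 the values were -2.75 and -2.26 in the tumours, against -6.18 and -6.39 in the epidermis, so the balance between the subunits differed by 3.77. For Psmb9 minus Psmb6 the values were -3.62 and -3.41 in the tumours, against -5.76 and -6.11 in the epidermis, a difference of 2.42. For Psmb10 minus Psmb7 they were -2.17 and -0.95 in the tumours, against -4.23 and -4.59 in the epidermis, a difference of 2.84. All 3 pairs separated the tissues without overlap; in the third the shift came with a lower Psmb7 and no called change of Psmb10. With 2 arrays per group an exact two-sided permutation test cannot go below 0.333. These pairs were set up after the values were seen, and they show unequal change of 2 probe sets, not the make-up of the proteasome.

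**Figure D3:**
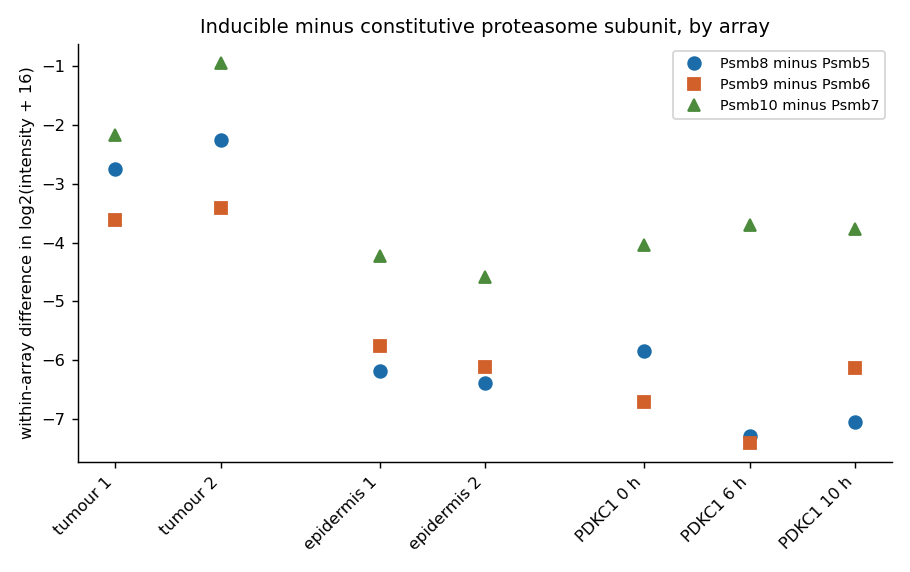
Within-array log2(intensity + 16) of each inducible subunit minus that of its constitutive counterpart, 1 point per array and pair, for tumour, epidermis and PDKC1 at 0 h, 6 h and 10 h. The tumours lie between -3.62 and -0.95 and the epidermis arrays between -6.39 and -4.23.

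Some assembly and loading factors fell, and none was called higher. Of 9 proteasome activators and assembly genes 4 were called lower and 0 higher by limma, where 12.3% and 16.2% of all genes were. By unadjusted p under 0.05 the counts were 6 and 0, where 3199 and 4085 of 18193 genes were lower and higher. The median was -0.94. Pomp, the chaperone that brings core subunits together, had 1110.1 and 830.7 in the tumours, against 4472.1 and 5124.5 in the epidermis (-2.30 ± 0.24, adjusted p = 0.000867). Psmg3 (-1.32), Psmg1 (-0.95) and Psme3 (-0.88) were the others, and with the mean of probe sets Psmg3 turned to 0.49. Of 10 genes of peptide loading and trimming limma called 4 lower and 0 higher, where 12.3% and 16.2% of all genes were. By unadjusted p under 0.05 the counts were 5 and 0, where 3199 and 4085 of 18193 genes were lower and higher. The median was -0.71. The 4 called were the peptidase genes Thop1 (-4.64 ± 0.47, adjusted p = 0.000818) and Tpp2 (-1.65), the disulphide isomerase gene Pdia3 (-1.62) and the chaperone gene Canx (-1.29). Thop1 had 399.9 and 120.8 in the tumours, against 6233.1 and 5664.0 in the epidermis, while Tpp2 turned to 0.31 with the mean of probe sets. With epidermis array 1 or 2 left out, 1 assembly gene was called lower each time, and 2 and 1 loading genes were. With probe sets averaged, 1 loading gene and 2 assembly genes were lower and 1 assembly gene higher, and with quantile normalization 2 loading genes were higher.

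The classical heavy chains H2-K1 and H2-D1, which pair with B2m, were not called. H2-K1 had 3653.9 and 1670.9 in the tumours, beside 2916.3 and 3282.2 in the epidermis (-0.32, adjusted p = 0.577), and H2-D1 had 5313.9 and 1679.2 in the tumours, beside 5167.8 and 5337.4 in the epidermis (-0.81, adjusted p = 0.271). In both, tumour 1 was near or above the epidermis and tumour 2 well below it. Without tumour 1 both were called lower (-0.88, adjusted p = 0.00587 for H2-K1; -1.64, adjusted p = 0.000286 for H2-D1), without tumour 2 they stood at 0.24 and 0.017, and with the mean of its probe sets H2-K1 was called higher (1.17, adjusted p = 0.0252). Heavy chain genes are near-identical and vary between mouse strains, so their probe sets may share or miss transcripts. Of 9 measured heavy chain genes 3 were called higher and 0 lower, where 16.2% and 12.3% of all genes were. The 3 were H2-T24 (2.86 ± 0.71), H2-Q10 (1.98 ± 0.49) and H2-M3 (1.83 ± 0.35). H2-T24 had 67.6 and 317.2 in the tumours, the first below its array median, against 6.1 and 7.8 in the epidermis. H2-Q10 had 102.8 and 127.4 in the tumours, both below the array medians, against 17.8 and 16.3. H2-M3 had 415.0 and 388.8 in the tumours, against 87.6 and 117.3. None of these 3 was called without epidermis array 1 or 2, and the median of the list, 0.31, turned to -0.14 with quantile normalization, -0.33 with centred arrays and -0.21 without tumour 1.

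Of the regulators of class I transcription Nlrc5, Rfx5 and Irf1 rose. Nlrc5, the transactivator of class I genes, had 470.6 and 730.6 in the tumours, against 34.6 and 58.8 in the epidermis (3.29 ± 0.42, adjusted p = 0.00172). Rfx5, a subunit of the complex through which NLRC5 binds promoters, had 2396.4 and 3729.8 in the tumours, against 671.9 and 688.1 in the epidermis (2.11 ± 0.27, adjusted p = 0.00172). Irf1 had 744.9 and 942.1 in the tumours, against 280.6 and 321.9 in the epidermis (1.43 ± 0.27, adjusted p = 0.00815). Nlrc5 and Rfx5 stayed called under all 14 alternatives to which genes were put. Irf1 was not called with centred arrays (0.0651) or without epidermis array 1 (0.114) or 2 (0.0790). Of 20 measured genes of the interferon gamma pathway and class I regulation 5 were called higher and 1 lower, where 16.2% and 12.3% of all genes were, and with centred arrays 3 were higher and 5 lower. The list had a median of 0.29 that turned to -0.15 with quantile normalization and -0.35 with centred arrays. The other subunits of the complex of Rfx5, Rfxank (-0.32, adjusted p = 0.647) and Rfxap (-0.63, 0.205), were not called, nor were Irf2, Irf8 and Ciita (adjusted p = 0.412, 0.233 and 0.333), all named after their values were seen. The kinase gene Jak2 was higher (1.46 ± 0.22) and Jak1 lower (-2.19 ± 0.47), and the feedback inhibitor gene Socs1 was the other one higher (1.46 ± 0.44). The interferon gamma gene Ifng itself had 29.6 and 59.2 in the tumours, beside 26.0 and 43.7 in the epidermis, all below the array medians, and was named, like Socs1, after its values were seen. The genes called higher were 2 each time when epidermis array 1 or 2 was left out.

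Of 22 interferon-induced genes 5 were called higher and 0 lower by limma, where 16.2% and 12.3% of all genes were. By unadjusted p under 0.05 the counts were 8 and 1, where 4085 and 3199 of 18193 genes were higher and lower. The median was 0.82, and 0.10 with quantile normalization. The 5 encode GTPases of the guanylate-binding and immunity-related families: Gbp3 (2.61 ± 0.54), Iigp1 (2.48 ± 0.36), Irgm2 (2.05 ± 0.41), Gbp2 (1.77 ± 0.47) and Igtp (1.77 ± 0.30). Iigp1 had 565.4 and 779.1 in the tumours, against 86.4 and 130 in the epidermis. Gbp6 (1.48, adjusted p = 0.0833) and Irgm1 (0.79, 0.245), of the same families, were not called, and neither were the antiviral genes Mx1 (1.28, 0.108), Rsad2 (-0.10, 0.877) and Oasl2 (0.07, 0.939), all 5 named after their values were seen. Without epidermis array 1 the list had 1 gene called higher, and without tumour 2 or epidermis array 2 it had 3.

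**Figure D4:**
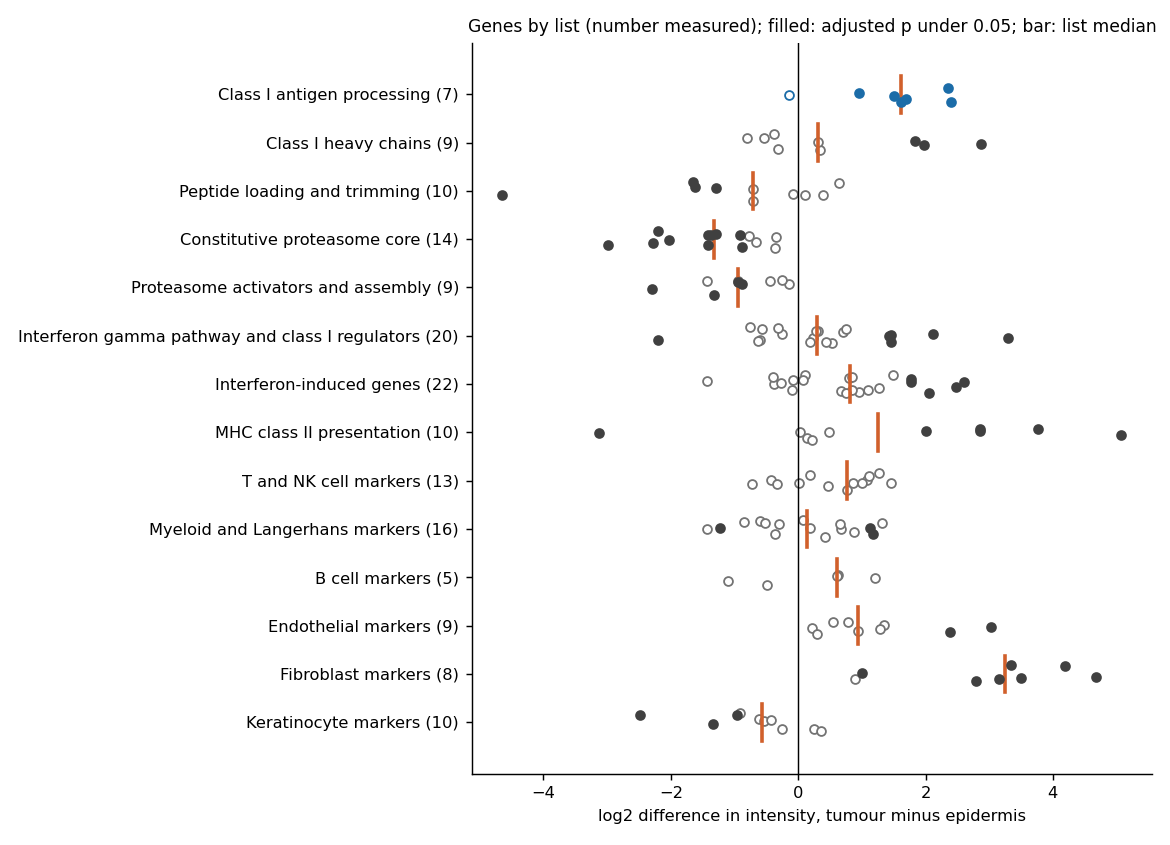
Log2 difference in intensity, tumour minus epidermis, of each gene (brightest probe set) in the 7 class I genes and 13 other lists; filled points have an adjusted p under 0.05 and orange bars give list medians. The class I genes have a median of 1.62 and the constitutive proteasome core -1.33.

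Other cell types could hold these RNAs, and their markers were read from the same arrays. MHC class II molecules mark professional antigen-presenting cells. Of 10 genes of class II presentation 5 were called higher and 1 lower, where 16.2% and 12.3% of all genes were. H2-Aa, H2-Eb1 and Cd74 differed by 5.08, 3.77 and 2.86. The thiol reductase gene Ifi30 was the lower one (-3.13), with 10550.5 and 11588.5 in the epidermis. The summed intensity of the 16 myeloid and Langerhans markers was 13857 and 14995 in the tumours, against 11844 and 10011 in the epidermis. Of the 16 limma called 2 higher (Mrc1 and Lyz2) and 1 lower (Adgre1), where 16.2% and 12.3% of all genes were. With centred arrays 0 were higher and 3 lower, and without a variance trend 0 were higher. The leukocyte gene Ptprc, named after its values were seen, had 1063.2 and 1514.2 in the tumours, beside 1006.0 and 614.2 in the epidermis (0.68, adjusted p = 0.164). Of 13 markers of T and NK cells limma called 0. By unadjusted p under 0.05 the counts were 2 higher and 0 lower, where 4085 and 3199 of 18193 genes were. The sum of the 13 markers was 546.9 and 855.9 in the tumours, beside 450.0 and 468.0 in the epidermis. Of these 13 markers 10 had a difference above 0, where 9736 of 18193 genes had. The median of the 13 was 0.77, against 0.09 over all genes. Apart from Cd8a and Prf1, these markers lay below the array median on every tissue array. The brightest were Cd8a, with 98.2 and 117.2 in the tumours, beside 182.4 and 122.8 in the epidermis (-0.43, adjusted p = 0.533), and Prf1, with 54.3 and 152.6 in the tumours, beside 7.6 and 50.8 in the epidermis (1.46, adjusted p = 0.181). Of 5 B cell markers limma called 0, and 0 had an unadjusted p under 0.05; the brightest were Jchain (1.20, adjusted p = 0.232) and Pax5 (-0.49, 0.576). Fibroblast markers had 7 of 8 called higher, with Pdgfrb (4.68), Col1a1 (4.19), Pdgfra (3.51) and Thy1 (3.35) in front. Endothelial markers had 2 of 9 called higher, Vwf (3.04) and Tek (2.39), where 16.2% of all genes were. Keratinocyte markers had 3 of 10 called lower, Krt1 (-2.48), Krt14 (-1.34) and Perp (-0.97), and 0 higher, where 12.3% and 16.2% of all genes were. With centred arrays 8 were lower, and with quantile normalization 1 was lower and 1 higher. The fibroblast sum was 65765 and 77840 in the tumours, against 14742 and 12037 in the epidermis. Without epidermis array 1 or 2, 0 myeloid markers were called in either direction, and 1 endothelial marker was higher and 1 keratinocyte marker lower; without tumour 1 and without tumour 2, 7 and 5 keratinocyte markers were lower. The part of these cells in the class I differences was not tested.

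PDKC1 gives the levels of the members in carcinoma cells grown without tissue around them. Its myeloid sum was 1197 at 0 h with Ptprc at 17.5, and its fibroblast sum was 591.1. Its T and NK sum was 480.3, beside 450.0 and 468.0 in the epidermis, with Cd8a at 119.3 and Prf1 at 134.6. In PDKC1 the class II sum was 1372, of which Ifi30 gave 921 and H2-Aa 20.0. B2m read 6610.8 there on probe set 1449289_a_at, against tumour values of 6473.5 and 5839.6. On its second probe set PDKC1 read 6269.3, above both tumours and both epidermis arrays. Psmb10 was also higher in PDKC1, at 683.0, than on any tissue array, a log2 difference of 1.25 from the tumour mean and 1.11 from the epidermis mean. The other immunoproteasome subunits were not. Psmb8 was at 78.5 in PDKC1, a log2 difference of -2.41 from the tumour mean and between the 2 epidermis arrays, and Psmb9 was at 27.1, a log2 difference of -2.95 from the tumour mean and -1.45 from the epidermis mean. Tap1 was at 222.7 in PDKC1, between the epidermis arrays. Tap2 at 208.2 and Tapbp at 1670.9 on probe set 1421812_at lay above the epidermis and below the tumours. The other Tapbp probe set, 1450378_at, read 523.0 in PDKC1, above both tumours (7.3 and 5.8) and both epidermis arrays (76.0 and 83.7). Of the 13 probe sets PDKC1 at 0 h was above both tumours in 5 and below both in 7, where 35.0% and 47.2% of all probe sets were, and above both epidermis arrays in 8 and below both in 2, where 43.9% and 38.2% were. With 1 array of PDKC1 without cyclopamine these are values without a test, from cells labelled from 2 µg of RNA rather than the 100 ng used for the tissues.

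The cyclopamine series asked what blocking Smoothened does to the carcinoma line. No array without cyclopamine stands at 6 h or 10 h, so cyclopamine and time cannot be told apart. Most of the class I probe sets that could be read stayed within 2-fold, as did most of the 25128 probe sets over the array median on at least 1 PDKC1 array. Of these 25128, 3.27% were at least 2-fold lower and 2.29% higher at 6 h, and 3.03% and 2.83% at 10 h. Of the 13 probe sets 8 were over the array median on at least 1 PDKC1 array, and 7 of these stayed within 2-fold of 0 h at both times, with log2 differences from 0 h of -0.12 to 0.33 at 6 h and -0.01 to 0.51 at 10 h. B2m read 6610.8, 7103.2 and 7319.0 at 0 h, 6 h and 10 h, and its second probe set 6269.3, 6296.0 and 6218.1. Tapbp read 1670.9, 1664.0 and 1867.2, Tap2 read 208.2, 266.6 and 248.3, and Psmb10 read 683.0, 856.8 and 771.7 at 0 h, 6 h and 10 h. Tap1 read 222.7, 235.4 and 324.8 at the same times, a difference of 0.51 at 10 h.

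Psmb8 was the exception, at 78.5, 17.7 and 26.4 at 0 h, 6 h and 10 h. It was the 1 member at least 2-fold lower at both times (log2 differences of -1.49 and -1.16), where 1.08% of 25128 probe sets past the level filter were lower and 1.21% higher in this way; 0 members were higher. It was also the 1 member past 2-fold at 6 h alone, where 3.27% of these probe sets were lower and 2.29% higher, and at 10 h alone (3.03% and 2.83%). Its level was low throughout: the array medians were 78.1, 72.1 and 75.7, so it passed the filter by its 0 h value alone, and with a pseudocount of 64 it no longer reached 2-fold. Its second probe set read 1.3, 1.0 and 1.7. Psmb9, below the median on all 3 arrays, read 27.1, 17 and 50.5 at 0 h, 6 h and 10 h, lower at 6 h and higher at 10 h than at 0 h. With 1 array per time none of these differences has a replicate check.

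**Figure D5:**
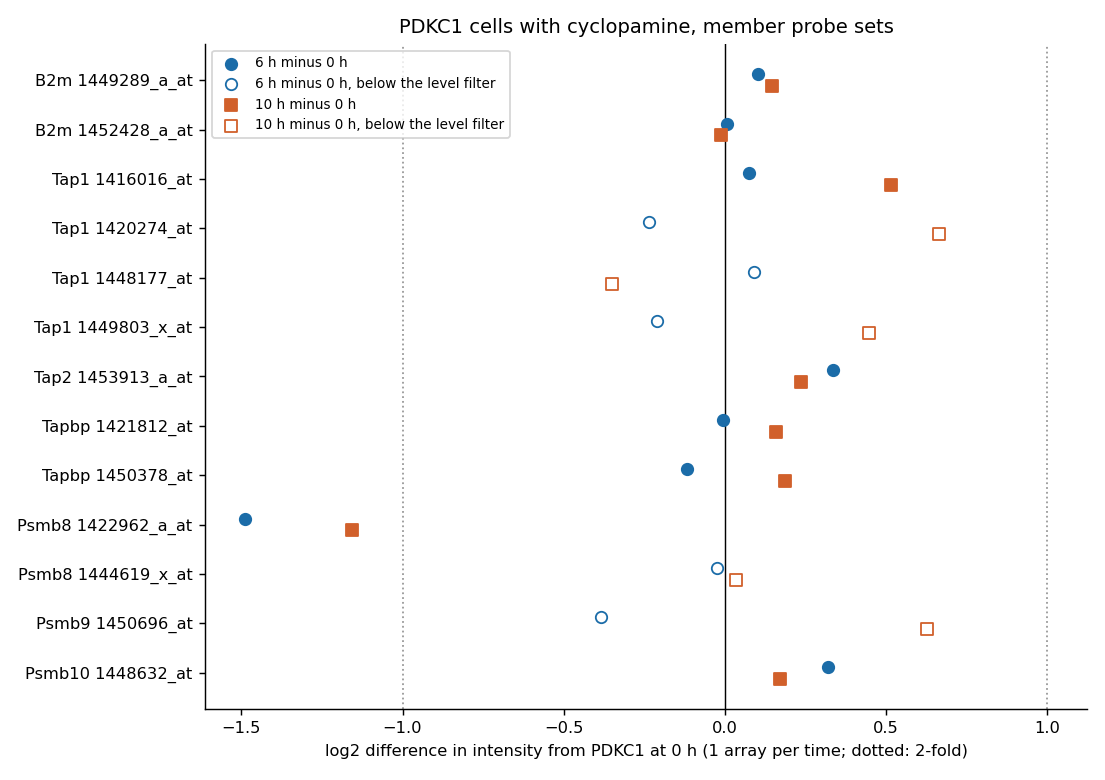
Log2 difference in intensity from PDKC1 at 0 h, at 6 h (circles) and 10 h (squares) of cyclopamine, for the 13 probe sets; open symbols are probe sets below the array median on all 3 arrays, and dotted lines mark 2-fold. Psmb8 probe set 1422962_a_at lies beyond 2-fold at both times, at -1.49 and -1.16.

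The genes whose log2 profile over the 7 arrays was most like that of each member came from 12082 candidates. They were Itgav (Pearson's r of 0.999), Gpc6 and Klhl2 for B2m, Gas2 (0.996), Mrgprb1 and Klc4 for Tap1, and Pla2g2c (0.989), Bbs7 and Lrch3 for Tap2. For Tapbp they were Mlxip (0.990), Cyp4v3 and Cahm, for Psmb8 Fign (0.995), Mycn and Inhba, for Psmb9 Kcnu1 (0.994), Zfp821 and Pheta2, and for Psmb10 Tmem129 (0.998), Fam118b and Pdpk1. No member was among the 3 closest genes of another. The 7 points fall into 3 kinds of sample and share their arrays, and these values only describe likeness.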

How the data were processed

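Total RNA was labelled as biotinylated cRNA by the standard Affymetrix method, per the labels' protocols. The authors deposited linear intensities, 1 for each probe set; the sources used here do not give the software. The mean of each array without its lowest and highest 2% was 500.0, and no further normalization was applied. The 64 control probe sets were left out, which left 45037; 34945 had 1 gene name, 932 had several and 9160 had none, by GEO's platform annotation with symbols updated through Entrez identifiers to RefSeq. Tests ran on log2(intensity + 16) for the 4 tissue arrays by lmFit and trended eBayes of limma 3.58.1 (R 4.3.3), two-sided, with Benjamini-Hochberg adjustment over 45037 probe sets and calls at an adjusted p under 0.05. A fold on this scale understates the change of dim probe sets. A gene in a list was represented by its brightest probe set, by mean log2 over the 7 arrays, and 155 of 179 list entries had a value, and the rest are not analysed here. PDKC1 arrays had no test: probe sets over the array median on at least 1 PDKC1 array were counted when at least 2-fold from 0 h at both times.

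The fit was tested on simulated data. Every member probe set is described. From each other list up to 4 called genes of largest difference were named, or up to 2 of the brightest, with Psmb5, Psmb6, Psmb7, H2-K1, H2-D1, Nlrc5 and Irf1 in any case. Igtp, Krt5 and Epcam were named besides, and other exceptions are stated where they occur. The members and lists were chosen with earlier results of these data known. Likeness was Pearson's r over the 7 arrays, among genes over an array median at least once and with a log2 range of at least 1. Each alternative changed 1 choice: quantile normalization, centred array medians, a pseudocount of 4 or 64, leaving out probe sets under the 40th percentile of level, fits on genes by brightest or mean probe set, no variance trend, a replicate block, at least 2-fold calls, and each tissue array left out. For PDKC1 they also held 1.5-fold differences and no level filter.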

Additional observations from a re-analysis of the deposited data

How the results depend on the processing

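Of 152 values of the 13 class I probe sets under the alternatives, 115 kept their direction and side of the threshold, 28 kept the direction and lost the call, 1 gained it and 8 turned, all 8 in probe sets that were not called. The 7 probe sets called higher became 4 with quantile normalization, 2 with centred array medians and 4 without a variance trend, and 1 to 7 with 1 array left out; the 1 called lower became 0 to 1 with 1 array left out. The 6 genes called higher became 2 with centred medians, 3 with the mean of probe sets, 4 with quantile normalization and 1 to 5 with 1 array left out. Over the other lists 29 genes called higher became 14 to 30, and 24 called lower became 6 to 39, with 1 array left out; the lower count was 45 with centred medians and 15 without a variance trend. The replicate block left 7 class I probe sets higher and 1 lower; numbers of tumour and epidermis arrays are not tied by any label, and their deviations correlated at -0.00 over probe sets. For the fits with 1 array left out the share of all probe sets called is not given, and the counts of the other lists changed in them too. The cause of the changes under the alternatives was not tested. With centred medians, B2m 1452428_a_at stood at -0.46, Tap1 1420274_at at -0.20 and Tap1 1448177_at at -0.55. With 1 array left out these ran from -0.43 to 0.78, -0.016 to 0.89 and -0.10 to 0.29, Psmb10 from -0.45 to 0.17, H2-D1 from -1.64 to 0.017 and H2-K1 from -0.88 to 0.24. With the mean of probe sets H2-K1 stood at 1.17, Psma1 at 0.19, Psmg3 at 0.49 and Tpp2 at 0.31. List medians turned to -0.14, -0.33 and -0.0058 for heavy chains, -0.15 and -0.35 for regulators, and -0.23, -0.50 and -0.11 for myeloid markers with quantile normalization, centred medians and, for the first and last, dim probe sets left out; with 1 array left out heavy chains ran from -0.21 to 0.24. Myeloid markers stood at -0.094 with the mean of probe sets. B cell markers stood at -0.034 with centred medians, -0.49 with dim probe sets left out, and -0.27 to 0.86 with 1 array left out. In PDKC1, the 1 member lower at both times became 0 with a pseudocount of 64.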

Other observations

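In PDKC1 several genes around interferon signalling, chosen after their values were seen, differed between the single arrays at 0 h, 6 h and 10 h. Of 10 interferon-induced genes past the level filter 1, Oas1a, was at least 2-fold lower at both times and 0 were higher. Of 14 regulators past it 0 were lower and 0 higher, where 117 and 107 of 11585 genes were. Cyclopamine and time cannot be told apart in these readings. Socs1, which restrains signalling from the interferon gamma receptor, read 4.6, 49.3 and 52.0 at 0 h, 6 h and 10 h. Ifit3, an antiviral gene, read 13.8, 56.8 and 73.8, while Ifit1 read 40.6, 5.3 and 9.1. Oas1a, another antiviral gene, read 124.8, 37.8 and 23.9 at these times, and Nlrc5 read 47.3, 40.2 and 4.3. Of these readings the 0 h value of Oas1a alone was over its array's median. Irf1 read 918.1, 772.9 and 814.6 at 0 h, 6 h and 10 h, against a level in the tumours of 744.9 and 942.1.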
